A study of Homo sapiens with 12 samples.

Results

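The data are RNA-seq libraries of Huh7, a human hepatoma line, with and without knockdown (KD) of UBL5. They make up 6 of the 12 libraries of a series that also profiles HepG2, another human hepatoma line, and were chosen by the cell line in their labels. The comparison asked how the transcriptome of these cells changes once UBL5 is lost. Huh7 cells grew in low-glucose medium and were transfected either with a nontarget control siRNA (Ctrl-siRNA, genotype label WT) or with an siRNA against UBL5 (UBL5 siRNA, genotype label UBL5 knockdown), with 3 libraries each. A single UBL5 siRNA was used, the labels give 52 h as the time where the study's text gives a somewhat shorter one, and whether the libraries within each group stem from separate transfections is not given in the sources used here. The p-values below therefore measure the spread between these libraries, which may be technical. The deposited Huh7 tables list 18434 genes, of 20293 genes listed for either line.

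UBL5 is a small ubiquitin-like protein, the homolog of yeast Hub1, that binds other proteins without being attached to them covalently. It docks on SART1, a protein of the U4/U6.U5 tri-snRNP, the particle that joins the spliceosome before its activation, and the removal of a subset of introns depends on it. Human cells short of UBL5 are known for faulty sister chromatid cohesion, which depends on sororin (CDCA5), and its worm homolog takes part in the mitochondrial unfolded protein response.

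The reads assigned to genes numbered 19469574 to 27158770 per library with Ctrl-siRNA and 20710925 to 22126273 with UBL5 siRNA. Levels are given as CPM, the usual count relative to the scaled size of its library, and 16965 genes with enough counts were tested with the quasi-likelihood test of edgeR. A gene was called where its p, adjusted over all genes tested, was under 0.05, and "rose" and "fell" are used of called genes alone. All 13 hepatocyte markers were listed, and their summed level was 31108 to 32656 CPM with Ctrl-siRNA and 32897 to 33350 CPM with UBL5 siRNA. Of 8 endothelial markers 1 was listed, with at most 0.668 CPM in a library. Of 8 leukocyte markers only CD14 and LYZ were listed. Their sum was 563 to 578 CPM with Ctrl-siRNA and 338 to 355 CPM with UBL5 siRNA. LYZ made up most of this sum and fell (log2 fold change −0.74), whereas CD14 rose (1.51). Of the exon sequence of LYZ, 34.7% lies in another gene. Of 8 fibroblast and stellate cell markers 7 were listed, with a sum of 71.2 to 77.0 CPM with Ctrl-siRNA and 95.5 to 109 CPM with UBL5 siRNA, and its part in the results was not tested. A gene is called overlapping below where over 20% of its exon sequence is also part of another gene, since its reads may then belong to the neighbour.

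The target itself, UBL5 (ENSG00000198258), has 5 exons and spans bases 9827892 to 9830115 of chromosome 19 on GRCh38. Its level was 68.1, 70.8 and 67.1 CPM with Ctrl-siRNA and 6.45, 6.67 and 5.80 CPM with UBL5 siRNA. Every KD library lay far below every control library, and the 3 libraries of each group were close to each other. The group means were 68.6 ± 1.91 CPM (SD, n = 3) and 6.31 ± 0.452 CPM (SD, n = 3), which is 90.8% fewer reads, with a log2 fold change of −3.44 (SE 0.0748, edgeR adjusted p = 2.9e-10).

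The KD moved a large share of the transcriptome. Of the 16965 genes tested, 12098 were called (71.3%), 5922 of them higher (34.9%) and 6176 lower (36.4%) with UBL5 siRNA. This balance depends on the scaling, and with library size only 5197 were higher and 6828 lower. Calls of at least 2-fold numbered 1462 higher (8.62%) and 2381 lower (14%), and the 2 groups did not overlap for 73.9% of genes. The median log2 fold change over all genes tested was −0.01. In bulk RNA, less of a transcript per cell and fewer cells that hold it cannot be told apart. Because so many genes were called, each group of genes below is read against these shares, and a count near them says nothing particular about the group. Many genes named below were picked for small p-values or for groups that do not overlap. That the libraries of such a gene stand apart follows largely from this choice and is a description only. The spread between replicates was small, with a biological coefficient of variation of 0.0663.

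Among protein-coding genes with enough reads and no overlap of the groups, HEPACAM2, an adhesion molecule of the immunoglobulin superfamily, fell the most. It had 10.1, 10.9 and 13.2 CPM with Ctrl-siRNA and 0.246, 0.448 and 0.325 CPM with UBL5 siRNA (log2 fold change −5.04, SE 0.217). The next lowest were BIRC3 (−3.58), TLCD2 (−3.46), UBL5 itself (−3.44), PIGV (−3.36), LCN2 (−3.34), the overlapping gene B9D1, IRAK3 (−3.27), EPHX2 (−3.01) and APOM (−2.97). BIRC3, LCN2 and IRAK3 belong to the NF-kB system described next, EPHX2 encodes the soluble epoxide hydrolase and APOM a lipocalin carried by high-density lipoprotein. The largest increases were those of AFM, the gene of afamin, a carrier of vitamin E in plasma, and DAGLA, which makes the endocannabinoid 2-arachidonoylglycerol. AFM had 1.81, 2.14 and 1.304 CPM with Ctrl-siRNA and 14.9, 15.8 and 16.1 CPM with UBL5 siRNA (log2 fold change 3.14, SE 0.145). DAGLA had 6.54, 7.44 and 8.27 against 58.9, 64.6 and 69.9 CPM (3.13, SE 0.0967). They were followed by ANGPTL2 (2.85), the somatostatin receptor gene SSTR2 (2.83), LGI4 (2.79), MDFI (2.71), TOP1MT (2.67), the mitochondrial topoisomerase I, and NYNRIN (2.66). Among the 10 highest, EIF4A1 (3.03) and CCDC152 (2.85) are overlapping.

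NF-kB is a family of dimeric transcription factors that IkB proteins hold in the cytoplasm until the IkB kinases release them, and its targets include chemokines, adhesion molecules, inhibitors of apoptosis and its own inhibitors. The inflammatory targets of NF-kB were the gene group with the lowest median in Huh7. Of 22 tested, 16 fell, 1 rose and 5 were not called, against 36.4% lower among all genes, and 11 fell at least 2-fold, against 14%. Their median log2 fold change was −0.99, beside −0.01 over all genes tested. The promoters of the genes that carry this result are shown here, with the RefSeq sequence of the 250 bases before the start site on GRCh38.p14, written 5′ to 3′ on the strand of the gene. Capitals mark matches on either strand to the NF-kB consensus or to the shorter site GGAATTTCC, overlapping matches being joined. BIRC3, LCN2, CXCL5, CXCL1 and CXCL10 were picked after their values were seen as genes that fell steeply, and CXCL8 as a well known target.
BIRC3, chr11:102317234-102317483 (plus strand): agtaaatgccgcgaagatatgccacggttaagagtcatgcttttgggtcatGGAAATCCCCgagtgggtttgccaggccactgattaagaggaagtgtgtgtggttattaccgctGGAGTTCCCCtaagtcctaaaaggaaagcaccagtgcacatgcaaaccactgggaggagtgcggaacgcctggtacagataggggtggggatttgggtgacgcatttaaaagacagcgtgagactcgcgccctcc
LCN2, chr9:128149203-128149452 (plus strand): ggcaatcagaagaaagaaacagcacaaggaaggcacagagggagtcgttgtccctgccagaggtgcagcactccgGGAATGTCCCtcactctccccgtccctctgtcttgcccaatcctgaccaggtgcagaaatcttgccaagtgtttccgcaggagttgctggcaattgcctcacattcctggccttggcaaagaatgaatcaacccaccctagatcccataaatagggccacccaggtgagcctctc
CXCL5, chr4:73998678-73998927 (minus strand): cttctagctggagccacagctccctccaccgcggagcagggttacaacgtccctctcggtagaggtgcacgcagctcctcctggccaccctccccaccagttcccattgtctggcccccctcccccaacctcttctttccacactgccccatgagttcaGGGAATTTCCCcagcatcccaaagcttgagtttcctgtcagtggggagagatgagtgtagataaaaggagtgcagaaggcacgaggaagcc
CXCL1, chr4:73869143-73869392 (plus strand): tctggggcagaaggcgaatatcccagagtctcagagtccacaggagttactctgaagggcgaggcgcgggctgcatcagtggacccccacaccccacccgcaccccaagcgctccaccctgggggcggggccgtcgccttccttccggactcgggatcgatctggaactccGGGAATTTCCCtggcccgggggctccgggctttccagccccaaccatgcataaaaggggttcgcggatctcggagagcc
CXCL10, chr4:76023498-76023747 (minus strand): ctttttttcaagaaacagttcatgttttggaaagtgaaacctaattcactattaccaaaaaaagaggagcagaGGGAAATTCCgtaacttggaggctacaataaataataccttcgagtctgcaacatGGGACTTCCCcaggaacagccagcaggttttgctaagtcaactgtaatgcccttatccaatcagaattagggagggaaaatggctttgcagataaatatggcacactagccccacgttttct
CXCL8, chr4:73740319-73740568 (plus strand): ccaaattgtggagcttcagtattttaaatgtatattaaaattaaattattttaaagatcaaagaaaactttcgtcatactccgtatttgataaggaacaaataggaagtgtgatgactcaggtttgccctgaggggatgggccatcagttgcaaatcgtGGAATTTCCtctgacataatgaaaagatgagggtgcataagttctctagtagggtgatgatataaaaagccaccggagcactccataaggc

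CXCL1 and CXCL5 hold the same symmetric match, and BIRC3 and CXCL10 hold 2 stretches each. In windows of 300 bases, from 250 before to 50 after the start, such a match was found in 16 of the 23 promoters available for the list (69.6%). Among the 20 of genes tested it was found in 14, and among the 16 of genes that fell in 12. It was found in 6.90% of the 11304 promoters of genes tested in Huh7 and in 5.94% of all 27305 promoters. Because the list was made of targets of NF-kB, its excess over these shares follows from that choice and says nothing about the KD. VCAM1, which rose, and IL32 (log2 fold change 0.11, adjusted p = 0.14) hold a match as well, and SOD2, CFB, TNFAIP2 and CD83, which fell, hold none in this window. A match of letters is a description and does not show that NF-kB binds there.

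BIRC3 (ENSG00000023445, chromosome 11 from 102317484 to 102339403), the inhibitor of apoptosis cIAP2, had 161, 142 and 161 CPM with Ctrl-siRNA and 11.97, 13.6 and 13.3 CPM with UBL5 siRNA, an 11.9-fold fall (log2 fold change −3.58, SE 0.0748, adjusted p = 2.9e-10). LCN2, the siderophore-binding lipocalin 2, had 20.8, 23.3 and 25.9 against 2.36, 2.29 and 2.23 CPM, a 10.1-fold fall (−3.34, SE 0.122). All KD libraries lay below all control libraries for both genes, with little spread among the KD libraries. BIRC2, the close relative and chromosomal neighbour of BIRC3, had 72.5, 71.5 and 65.3 CPM with Ctrl-siRNA and 70.6, 70.9 and 72.4 CPM with UBL5 siRNA (0.03, adjusted p = 0.63). The groups overlapped for BIRC2, whereas those of BIRC3 were far apart.

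The ELR-positive CXC chemokines, which attract neutrophils, fell together. CXCL5 had 729.9, 601 and 596 CPM with Ctrl-siRNA and 94.9, 100 and 99.4 CPM with UBL5 siRNA, a 6.55-fold fall (log2 fold change −2.71, SE 0.0769). CXCL1 had 84.4, 76.4 and 92.7 against 13.1, 14.7 and 14.1 CPM (−2.59, SE 0.0834), and CXCL6 fell to a like extent (−2.61, SE 0.108). CXCL8, which encodes interleukin-8, had 98.0, 88.2 and 96.7 against 40.5, 36.5 and 40.8 CPM (−1.26, SE 0.0640). The fall of CXCL8 was the smallest among the chemokines of this list, and its groups still did not overlap. CXCL2 (−1.94) and CXCL3 (−1.49) lay between. All these genes lie in a cluster on chromosome 4 between 73740519 and 74099196. CXCL10, which attracts activated T cells and lies apart from the cluster on the same chromosome, had 37.6, 33.9 and 37.0 against 6.90, 5.68 and 6.73 CPM (−2.49, SE 0.0917). CCL20, a chemokine on chromosome 2, had 737, 747 and 741 against 220.4, 229.6 and 256 CPM (−1.66, SE 0.0567). Thus chemokine genes on both chromosomes were lower in every KD library.

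**Figure D1:**
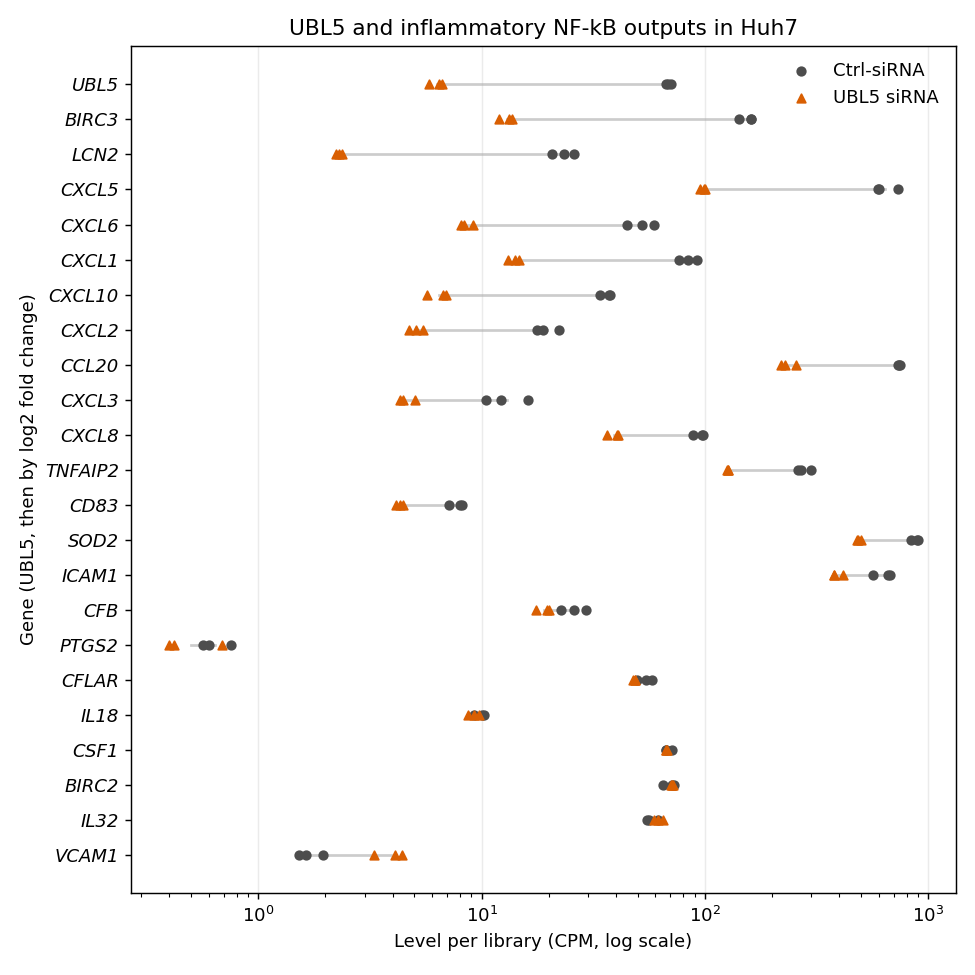
UBL5 and the 22 inflammatory NF-kB outputs tested in Huh7. The horizontal axis gives CPM on a log scale, circles are the 3 Ctrl-siRNA libraries and triangles the 3 UBL5-siRNA libraries of each gene, and grey lines join the group means. The groups do not overlap for 17 of the 22 outputs (73.9% over all genes), and among these VCAM1 alone is higher with UBL5 siRNA.

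The falls were smaller for the remaining members. SOD2, the mitochondrial superoxide dismutase, had 835, 891 and 901 CPM with Ctrl-siRNA and 479, 487 and 501 CPM with UBL5 siRNA (log2 fold change −0.84, SE 0.0463). ICAM1, a ligand of leukocyte integrins and here an overlapping gene, had 567, 659.7 and 676 against 377, 377 and 414 CPM (−0.70, SE 0.0671). CFLAR, the inhibitor of caspase-8, had 49.6, 58.2 and 54.4 against 48.4, 47.7 and 48.8 CPM (−0.16, adjusted p = 0.045), and this call was lost when single libraries were left out. VCAM1, another leukocyte ligand, was the exception, with 1.63, 1.52 and 1.96 against 3.30, 4.38 and 4.08 CPM (1.21, SE 0.178). The 5 members without a call were PTGS2, IL18, CSF1, BIRC2 and IL32.

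The genes of the NF-kB machinery did not move one way. Of 27 subunits, inhibitors and kinases tested, 9 rose and 11 fell (all genes, 34.9% and 36.4%), with a median of −0.06. Within this list only TRAF1 fell and only MAP3K14 rose 2-fold or more (all genes, 14% and 8.62%). RELA, which encodes the subunit p65, had 82.7, 88.4 and 84.9 CPM with Ctrl-siRNA and 139, 143 and 143 CPM with UBL5 siRNA (log2 fold change 0.73, SE 0.0461). By contrast, NFKB2 had 109.6, 109 and 122 against 56.2, 61.2 and 64.0 CPM (−0.91, SE 0.0633), and RELB (−0.95) and NFKB1 (−0.47) fell as well. RELA was higher and NFKB1, NFKB2 and RELB were lower in every KD library. Of the feedback inhibitors, TNFAIP3, which encodes A20, fell (−0.68, SE 0.0582), as did NFKBIZ (−0.62), whereas NFKBIA, which encodes IkB alpha, had 139.6, 137 and 143 against 133, 130.04 and 139 CPM (−0.06, adjusted p = 0.25). The IRAK genes, which act upstream, are outside this list. IRAK1, a kinase of the interleukin-1 and Toll-like receptor pathway, had 116, 115 and 131 against 31.5, 34.004 and 34.3 CPM (−1.86, SE 0.0655). IRAK3, a relative that restrains this pathway, had 18.4, 21.1 and 18.5 against 1.97, 2.44 and 1.62 CPM (−3.27, SE 0.137). For both IRAK genes the groups were far apart.

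Receptors and ligands of the TNF superfamily went the opposite way to the inflammatory outputs. Of 20 genes tested in this list, which includes adaptors and initiator caspases, 13 rose (all genes, 34.9%) and 3 fell, with a median of 0.75. TNFRSF1A, the main TNF receptor, had 81.1, 85.4 and 86.6 CPM with Ctrl-siRNA and 212, 225 and 234 CPM with UBL5 siRNA, a 2.65-fold rise (log2 fold change 1.41, SE 0.0519). LTBR, the lymphotoxin beta receptor, had 70.2, 72.9 and 81.0 against 198, 199.9 and 212 CPM (1.45, SE 0.0588). TNFRSF10B, the TRAIL receptor DR5, had 235, 251 and 245 against 397, 405 and 406 CPM (0.72, SE 0.0432). All 3 receptors were higher in every KD library. TRADD, the adaptor that binds TNFRSF1A, fell instead, with 5.65, 6.28 and 8.17 against 1.58, 1.64 and 1.95 CPM (−1.94, SE 0.184), and CASP8 had 55.0, 54.2 and 53.3 against 54.6, 53.1 and 50.9 CPM (−0.04, adjusted p = 0.57).

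Of 20 interferon-stimulated genes tested, 8 fell and 4 rose (all genes, 36.4% and 34.9%), with a median of −0.18. OAS3, a sensor of double-stranded RNA, had 66.2, 62.6 and 60.01 CPM with Ctrl-siRNA and 16.4, 15.2 and 15.2 CPM with UBL5 siRNA (log2 fold change −2.02, SE 0.0679). IFI35 fell as well (−2.68, SE 0.168), and so did STAT2 (−0.77, SE 0.0749), whose product is part of the factor that interferon activates. The list was mixed, because the antiviral kinase gene EIF2AK2 rose (0.54, SE 0.0559) and the commonly used reporter ISG15 had 11.5, 13.9 and 16.04 against 11.3, 13.1 and 12.7 CPM (−0.15, adjusted p = 0.29). IRF9, here an overlapping gene, rose the most of the list, from 1.53, 1.34 and 1.10 CPM to 5.52, 4.93 and 7.01 CPM (2.12, SE 0.191).

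**Figure D2:**
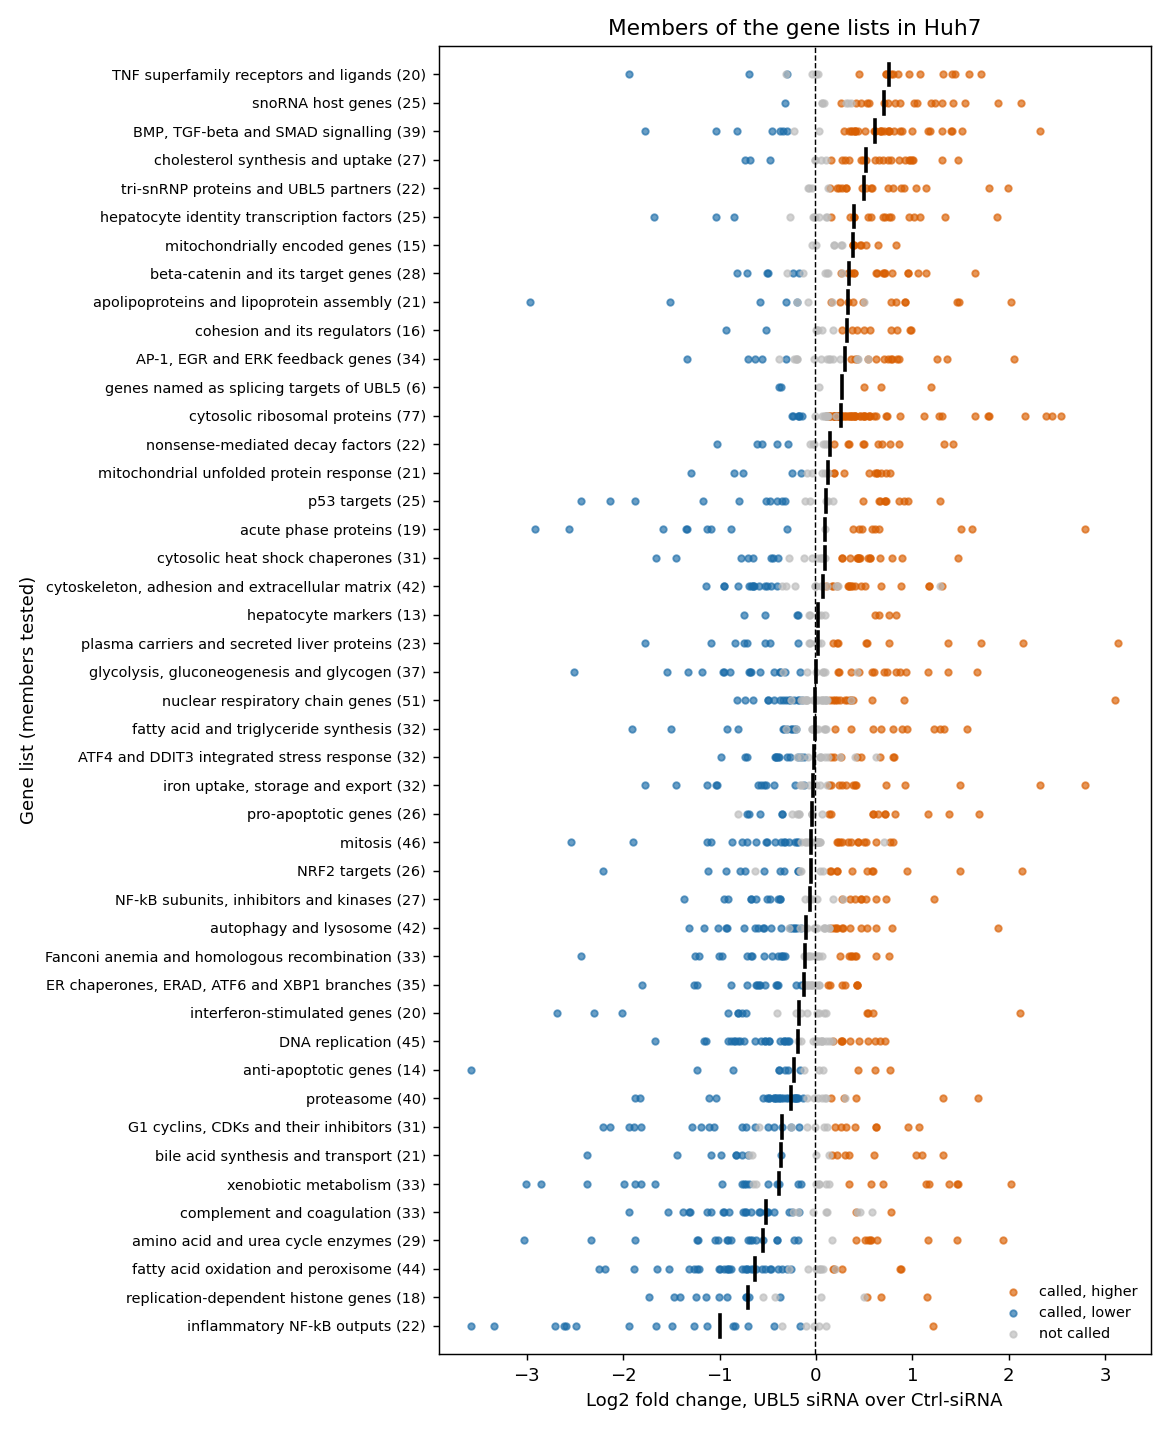
Log2 fold change (UBL5 siRNA over Ctrl-siRNA, horizontal axis) of each member of the gene lists in Huh7, with the number of members tested in parentheses. Orange points were called higher, blue points called lower and grey points not called, and black bars are list medians, which run from −0.99 for inflammatory NF-kB outputs to 0.75 for TNF superfamily genes. The lists of marker genes of other cell types are left out.

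Secreted liver proteins split by class in Huh7. Of 33 complement and coagulation genes tested, 23 fell (all genes, 36.4%) and 2 rose, with a median of −0.52. F2, which encodes prothrombin, had 319, 369.6 and 366 CPM with Ctrl-siRNA and 139, 144 and 144 CPM with UBL5 siRNA, a 2.47-fold fall (log2 fold change −1.30, SE 0.0588). C3, the central component of complement, had 4314, 4718 and 4599 against 2807, 2575 and 2677 CPM (−0.76, SE 0.0523). SERPINF2, the inhibitor of plasmin, fell by a log2 of −1.38 (SE 0.0548), the lectin gene MBL2 by −1.31 (SE 0.0634) and SERPINC1, which encodes antithrombin, by −0.68 (SE 0.0511). In each of these the groups stood apart. The 2 that rose were F10 (0.41, SE 0.0562) and C6 (0.78, SE 0.152).

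Acute phase genes parted in 2 directions, with 9 of 19 higher and 9 lower (all genes, 34.9% and 36.4%) and a median of 0.10. The 3 fibrinogen chains rose together. FGB had 1768, 1840 and 1699 CPM with Ctrl-siRNA and 2676, 2721 and 2714 CPM with UBL5 siRNA (log2 fold change 0.61, SE 0.0458), and FGA (0.58, SE 0.0512) and FGG (0.65, SE 0.0482) rose to a like extent. LRG1, a glycoprotein induced in inflammation, fell from 72.2, 77.7 and 75.1 CPM to 27.8, 23.8 and 23.4 CPM (−1.58, SE 0.0722). SAA2, a serum amyloid A gene, had 4.12, 4.59 and 5.72 against 0.493, 0.647 and 0.743 CPM (−2.91, SE 0.223). The inhibitor A2M had 1809, 1903 and 1869 against 1093, 959 and 989.5 CPM (−0.88, SE 0.0545). Thus the fibrinogen genes were higher and these 3 genes lower in every KD library. HAMP, which encodes the iron hormone hepcidin, had 0.355, 0.401 and 0.251 against 2.22, 1.99 and 2.92 CPM (2.79, SE 0.282), so that it rose 6.92-fold from very few reads.

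Carriers of the plasma did not move one way. ALB, the albumin gene, had 8052, 8088 and 7647 CPM with Ctrl-siRNA and 8310, 7988 and 7894 CPM with UBL5 siRNA, with overlapping groups (log2 fold change 0.02, SE 0.0474, adjusted p = 0.66). TTR, the thyroid hormone carrier transthyretin, had 224, 224 and 222 against 155, 159 and 150.4 CPM (−0.53, SE 0.0426). SERPINA7, another thyroid hormone carrier, went up from 29.7, 33.1 and 29.98 CPM to 104, 96.8 and 104 CPM (1.72, SE 0.0610). The 2 carriers thus moved in opposite directions, each with groups that did not overlap. Of 23 plasma carriers and other secreted proteins tested, 10 rose and 8 fell (all genes, 34.9% and 36.4%), with a median of 0.02. Of 13 hepatocyte markers, 4 rose and 4 fell (median 0.02).

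Genes of lipoprotein particles rose more often than all genes. Of 21 tested, 12 rose (all genes, 34.9%) and 5 fell, with a median of 0.34. APOA1, the main protein of high-density lipoprotein, had 373, 411 and 439 CPM with Ctrl-siRNA and 713, 691 and 766 CPM with UBL5 siRNA (log2 fold change 0.83, SE 0.0631). APOM, carried by the same particles, had 28.1, 33.8 and 33.8 against 4.88, 3.93 and 3.39 CPM, a 7.84-fold fall (−2.97, SE 0.128). APOC3, an inhibitor of lipoprotein lipase, fell too, from 103, 130.3 and 123 CPM to 46.1, 38.8 and 40.1 CPM (−1.51, SE 0.0902). APOB had 4021, 4484 and 4177 against 3636, 3723 and 3750 CPM (−0.19, SE 0.0506). For APOA1 the KD libraries were all higher, and for the other 3 genes they were all lower.

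Transcription factors of hepatocyte identity rose in 15 of 25 cases (all genes, 34.9%) and fell in 3, with a median of 0.39. HNF4A, a nuclear receptor that many liver genes depend on, had 344, 349 and 333 CPM with Ctrl-siRNA and 607, 574 and 551 CPM with UBL5 siRNA (log2 fold change 0.75, SE 0.0479). RXRA, the partner of many nuclear receptors, had 111, 116 and 129 against 291, 308 and 300.3 CPM (1.34, SE 0.0586). PPARA, the nuclear receptor that drives fatty acid oxidation genes, went the other way, with 32.3, 32.4 and 34.8 against 15.5, 15.5 and 17.5 CPM (−1.04, SE 0.0755). All 3 differences separated the groups. CEBPD, a factor of the acute phase response, had 44.2, 60.2 and 134 against 15.4, 17.9 and 40.2 CPM (−1.68, SE 0.405), and was highest in replicate 3 of both groups.

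Genes of lipid metabolism were called in both directions. Cholesterol is made from acetyl-CoA through mevalonate and squalene, and most genes of this pathway are under control of SREBP-2. Of 27 cholesterol genes tested, 20 rose (all genes, 34.9%), 3 fell and 4 were not called, with a median of 0.52. HMGCS1, a cytosolic enzyme early in the pathway and here an overlapping gene, rose from 1864, 1853 and 1759 CPM to 4517, 4562 and 4462 CPM (log2 fold change 1.31, SE 0.0453). MSMO1, a sterol oxidase, had 212, 213 and 208 against 426, 415 and 431 CPM (1.01, SE 0.0413). Both genes were higher in every KD library. The 3 that fell were LSS, which closes the sterol ring (−0.73, SE 0.0432), PMVK (−0.69, SE 0.0651) and TM7SF2 (−0.48). SREBF2, which encodes SREBP-2, had 419.9, 452 and 452 against 503, 481 and 487 CPM (0.15, SE 0.0461), a call that was lost with another scaling.

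Fatty acid and triglyceride synthesis genes stayed near the shares over all genes (34.9% and 36.4%), with 11 of 32 higher and 11 lower and a median of −0.01. FASN, the fatty acid synthase, had 991, 1070 and 1308 CPM with Ctrl-siRNA and 1703, 1754 and 1912 CPM with UBL5 siRNA (log2 fold change 0.67, SE 0.0879). ACACA, which makes malonyl-CoA, had 198, 192 and 183 against 382, 348 and 337 CPM (0.90, SE 0.0552), and the desaturase SCD had 2256, 2376 and 2261 against 3989, 3985 and 4035 CPM (0.80, SE 0.0443). SREBF1, their main regulator, had 260.2, 297 and 342 against 428, 451 and 476 CPM (0.59, SE 0.0832). The 4 genes were higher in every KD library, although FASN and SREBF1 were also highest in replicate 3 of each group. Enzymes of triglyceride assembly moved both ways. DGAT2 (1.22, SE 0.0515) and LPIN1 (1.33, SE 0.0495) rose, whereas AGPAT1 (−1.51, SE 0.0886), here an overlapping gene, and LPIN2 (−0.81, SE 0.0493) fell. Of the enzymes that elongate or desaturate fatty acids, ELOVL6 rose (1.29, SE 0.0614), and FADS1, a desaturase of polyunsaturated fatty acids, fell from 408, 431 and 412 CPM to 228, 219 and 213 CPM (−0.92, SE 0.0461).

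**Figure D3:**
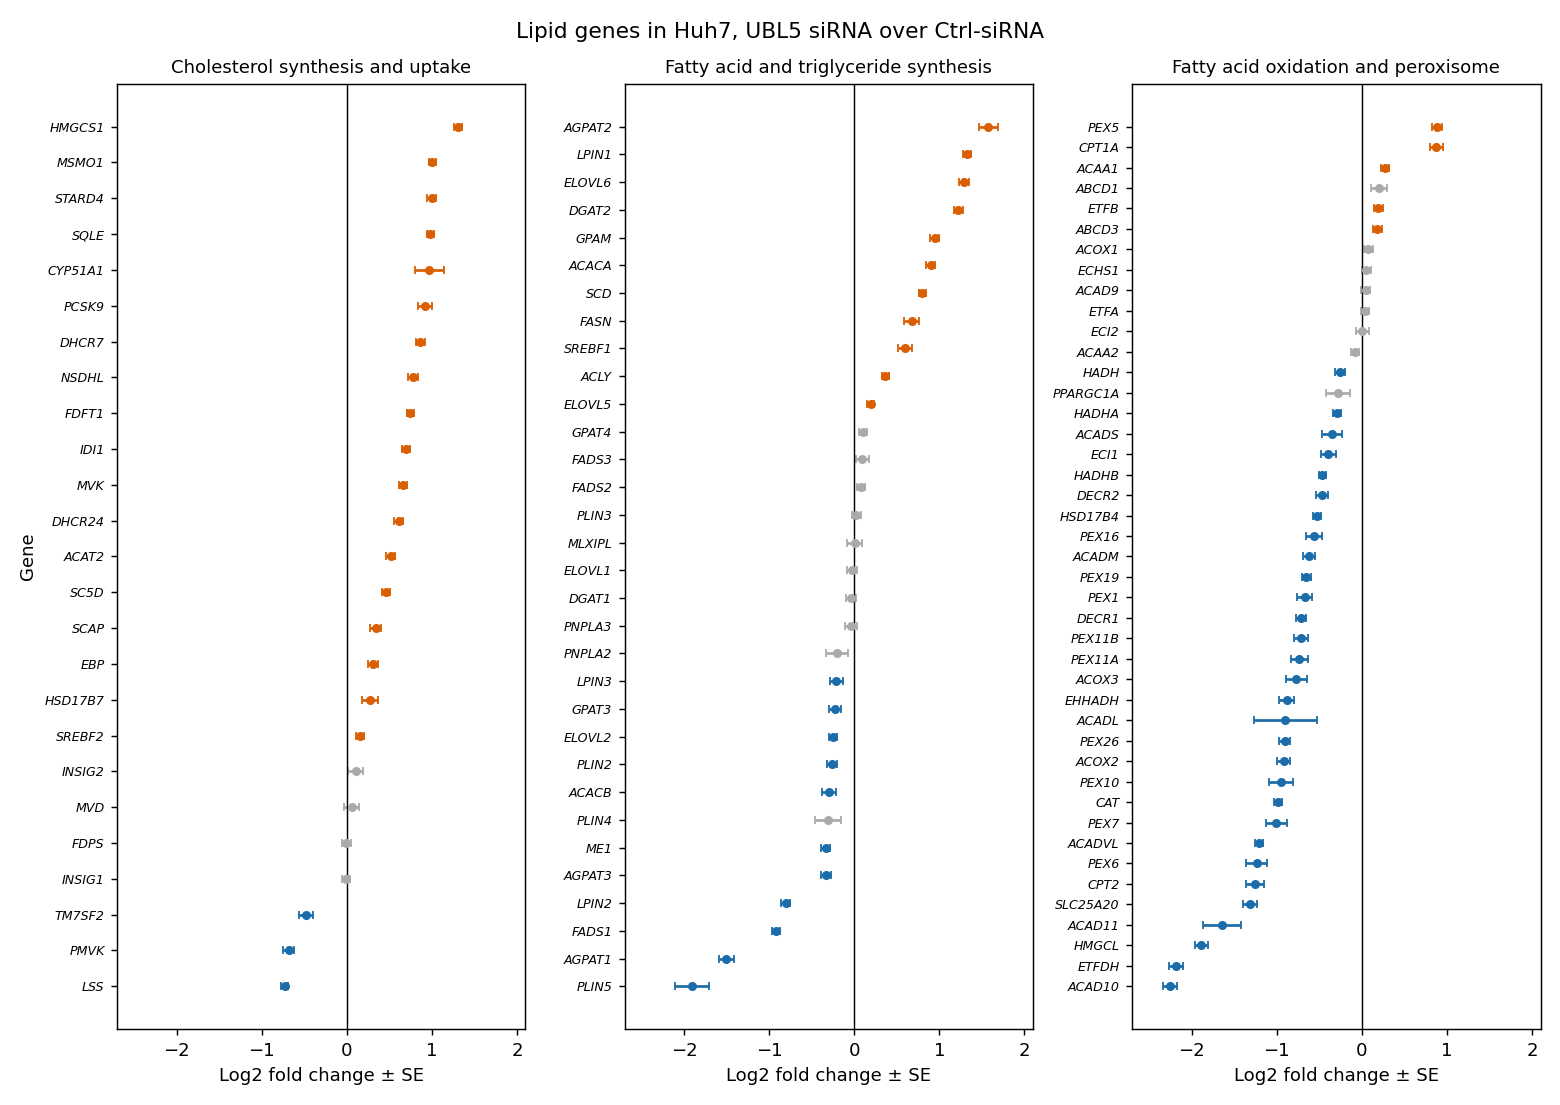
Log2 fold change (UBL5 siRNA over Ctrl-siRNA) with its SE for lipid genes tested in Huh7, in 3 panels that share the horizontal scale. Orange was called higher, blue called lower and grey not called. A few list members are not shown. Most points are orange in the panel of cholesterol genes and blue in that of oxidation and peroxisome genes.

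Oxidation and peroxisome genes fell in 31 of 44 cases (all genes, 36.4%) and rose in 5, with a median of −0.64. ETFDH, which passes electrons from fatty acid oxidation to ubiquinone, had 34.5, 34.05 and 35.1 CPM with Ctrl-siRNA and 7.78, 8.07 and 6.92 CPM with UBL5 siRNA, a 4.56-fold fall (log2 fold change −2.19, SE 0.0805). ACADVL, the very-long-chain dehydrogenase, had 456, 469 and 486 against 202, 206 and 202 CPM (−1.21, SE 0.0435). ACAD10 fell as far as ETFDH (−2.25, SE 0.0809), and ACADM, the medium-chain dehydrogenase, fell by a log2 of −0.62 (SE 0.0677). CPT1A, the carnitine palmitoyltransferase of the outer membrane, rose, unlike most of the list, with 49.8, 56.3 and 47.0 against 88.7, 89.2 and 103 CPM (0.87, SE 0.0776). PEX5, the import receptor of peroxisomes, rose to a like extent (0.88, SE 0.0584). FABP1, the fatty acid carrier of liver, was among the 10 genes that lost the most CPM, with 763, 792 and 789 against 256, 249 and 271 CPM (−1.60, SE 0.0467).

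Enzymes of amino acid metabolism and the urea cycle fell in 19 of 29 cases (all genes, 36.4%) and rose in 9, with a median of −0.55. ASS1, of the urea cycle, had 69.8, 82.0 and 79.5 CPM with Ctrl-siRNA and 61.3, 56.9 and 56.0 CPM with UBL5 siRNA (log2 fold change −0.41, SE 0.0682), and GLUL, the glutamine synthetase, rose from 649, 612 and 605 CPM to 975, 958 and 956 CPM (0.63, SE 0.0444). Neither gene had overlapping groups. Of 33 xenobiotic enzymes, 17 fell and 9 rose, with a median of −0.38. EPHX2 had 55.8, 54.5 and 56.6 against 5.96, 6.97 and 7.80 CPM (−3.01, SE 0.0881), and the glutathione transferase GSTK1 had 127, 129 and 121 against 29.9, 32.8 and 32.0 CPM (−1.99, SE 0.0556). POR, the reductase that feeds electrons to the cytochromes P450, rose from 123, 135 and 144 CPM to 283, 305 and 315 CPM (1.17, SE 0.0630). Of 21 bile acid genes, 9 fell and 8 rose (median −0.37), with SLC51A (1.32) and KLB (1.10), the co-receptor for FGF19, among those higher and AKR1C4 (−2.38) among those lower. Glycolysis, gluconeogenesis and glycogen genes were near the shares over all genes, at 14 higher and 16 lower of 37 (median 0.00). There, PCK2 fell from 153, 169 and 175 CPM to 59.8, 57.0 and 53.5 CPM (−1.54, SE 0.0630), and HK2 rose from 141, 165 and 154 CPM to 279.8, 285 and 316 CPM (0.94, SE 0.0661).

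Proteins of the tri-snRNP and partners of UBL5 rose in 18 of 22 cases (all genes, 34.9%), and none fell. By edgeR at an unadjusted p under 0.05, and by DESeq2 at either threshold, the count of lower genes was also 0. The median was 0.50. PRPF3 (ENSG00000117360), a U4/U6 protein, had 50.5, 50.6 and 50.1 CPM with Ctrl-siRNA and 175, 176 and 174 CPM with UBL5 siRNA, a 3.47-fold rise (log2 fold change 1.79, SE 0.0438, adjusted p = 2.9e-10). SNRNP27, another tri-snRNP protein, had 8.88, 8.56 and 8.67 against 34.045, 37.8 and 32.1 CPM (1.99, SE 0.0844). USP39, which carries a ubiquitin protease fold without the activity, had 87.1, 85.3 and 82.3 against 163, 154 and 152 CPM (0.88, SE 0.0480). SART1, the protein that UBL5 binds in this particle, had 75.1, 77.6 and 78.6 against 115, 113 and 117 CPM (0.58, SE 0.0453). COIL, the Cajal body protein coilin, rose from 36.9, 36.9 and 36.2 CPM to 51.4, 51.0 and 51.1 CPM (0.48, SE 0.0538). The 5 genes were higher in every KD library, and PRPF3 varied little within either group.

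Of 22 factors of nonsense-mediated decay, the pathway that degrades transcripts with early stop codons, 11 rose and 5 fell (all genes, 34.9% and 36.4%), with a median of 0.15. RNPS1, of the exon junction complex, had 72.6, 73.3 and 74.2 CPM with Ctrl-siRNA and 203, 197 and 190.0 CPM with UBL5 siRNA (log2 fold change 1.42, SE 0.0460). UPF1, the central helicase, had 213, 211 and 236 against 352, 347 and 359.9 CPM (0.68, SE 0.0515). NBAS fell from 50.7, 52.4 and 48.2 CPM to 25.4, 22.8 and 26.2 CPM (−1.02, SE 0.0698). Host genes of snoRNAs, many of whose spliced transcripts this pathway degrades, rose in 18 of 25 cases and fell in 1, with a median of 0.71. With the 10 overlapping hosts left out, 11 of 15 rose and 1 fell. SNHG3 had 15.4, 13.9 and 14.6 against 64.4, 65.2 and 62.9 CPM (2.13, SE 0.0648), and SNHG15 had 22.6, 22.1 and 21.9 against 85.2, 81.0 and 81.3 CPM (1.89, SE 0.0560). GAS5 rose less, from 120.4, 120.5 and 135 CPM to 219, 215 and 231 CPM (0.82, SE 0.0555). SNHG29 was the member that fell, with 619, 645 and 625 against 516, 497 and 502 CPM (−0.32, SE 0.0419).

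The classes of transcript differed in their response. Long noncoding RNAs (lncRNAs) fell in 895 of 1783 cases (all genes, 36.4%) and rose in 370, with a median log2 fold change of −0.59. For the 1426 with several exons, 780 fell and 275 rose (median −0.72), and for the 357 with 1 exon, 115 fell and 95 rose (median −0.17). Among those with a mean of at least 100 scaled counts, the lowest were MRPL23-AS1, with 7.89, 10.3 and 8.22 CPM with Ctrl-siRNA and 0.443, 0.349 and 0.371 CPM with UBL5 siRNA (−4.48, SE 0.211), and LINC00467, with 15.2, 16.8 and 19.5 against 1.38, 1.74 and 1.95 CPM (−3.33, SE 0.153). Both fell at least 10-fold. Pseudogenes rose in 533 and fell in 343 of 2083 cases (median 0.11). Of 23 snoRNAs and scaRNAs, 19 rose and none fell, with a median of 1.59. By edgeR at an unadjusted p under 0.05, and by DESeq2 with or without adjustment, 0 were lower. SNORD17, an example, had 2.45, 2.01 and 1.91 against 7.93, 8.21 and 8.63 CPM (1.94, SE 0.137). Libraries of polyadenylated RNA hold few mature snoRNAs.

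Among protein-coding genes, the share that fell grew with the number of exons of the canonical transcript. Over all 12941 protein-coding genes tested, 38.2% rose and 37.9% fell (76.1% called). Of 278 genes with 1 exon, 119 rose and 69 fell (median 0.20), and of 256 genes with 41 or more exons, 46 rose and 161 fell (median −0.46). The medians of genes with 3 to 20 exons lay between 0.01 and 0.03, so that the difference stood at the ends of the range. The median of genes with 1 exon exceeded that of genes with over 20 exons by 0.30. The 2589 longest genes, of over 103060 bases, fell in 1258 cases and rose in 756 (median −0.19), whereas the 2588 shortest had a median of 0.09. Exon number and gene length were not fitted jointly. Within 4 bins of expression, the median of genes with 1 exon was 0.00, 0.23, 0.36 and 0.30 from the lowest to the highest bin, and that of genes with over 20 exons was −0.56, −0.33, −0.10 and 0.07. Genes with 1 exon thus had the higher median in every bin.

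**Figure D4:**
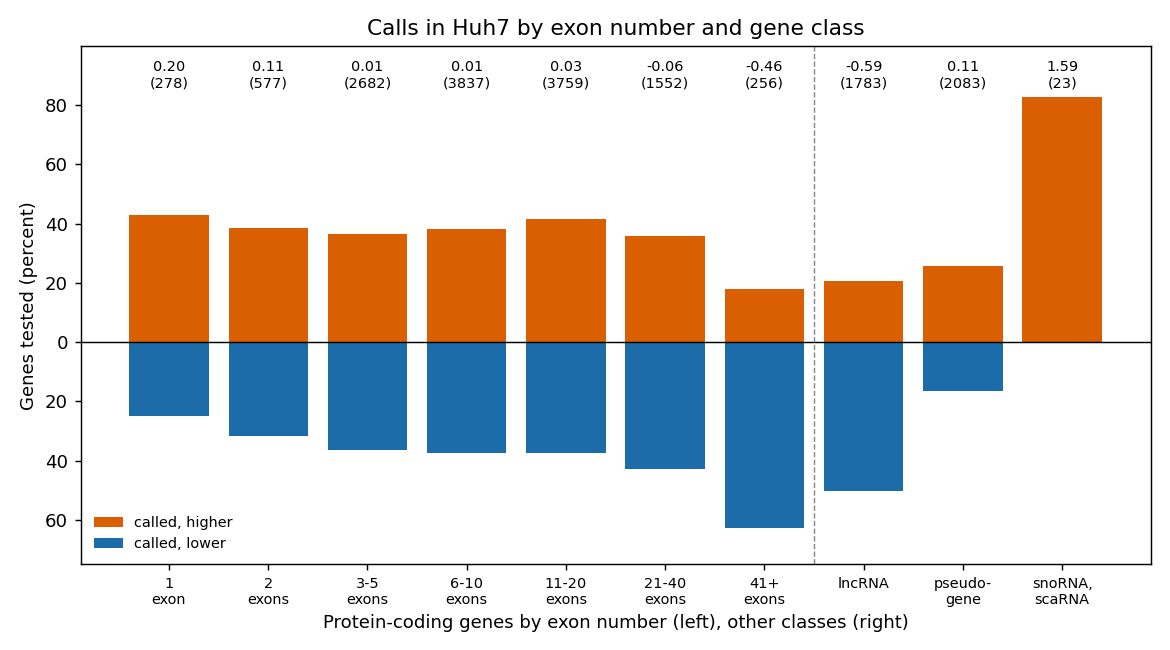
Share of genes tested in Huh7 that were called higher (orange, upward) or lower (blue, downward) with UBL5 siRNA, in percent on the vertical axis. Protein-coding genes stand on the left by exon number of the canonical transcript and other gene classes on the right, and the numbers above each bar give the median log2 fold change and, in parentheses, the genes tested. The blue bar is longest for genes with 41 or more exons, and snoRNAs and scaRNAs have no blue bar.

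Ribosomal protein genes rose in 61 of 77 cases (all genes, 34.9%) and fell in 6, with a median of 0.26. RPL3 had 906, 962 and 926 CPM with Ctrl-siRNA and 1102, 1070 and 1084 CPM with UBL5 siRNA (log2 fold change 0.22, SE 0.0433), and RPL5 had 449, 477 and 469 against 651, 651 and 671 CPM (0.50, SE 0.0434). These rises were small but separated the groups. Of the 77 members, 10 rose at least 2-fold (all genes, 8.62%). Near-identical copies of ribosomal protein genes elsewhere in the genome make such counts uncertain. Proteasome subunits went the other way, with 28 of 40 lower (all genes, 36.4%) and 5 higher and a median of −0.26. PSMB4 had 567, 578 and 551 against 285, 259.6 and 241 CPM (−1.11, SE 0.0590), and PSMB7, a catalytic subunit, had 419, 437 and 418 against 225, 205 and 189 CPM (−1.04, SE 0.0601). PSMB5, another catalytic subunit, fell less, from 308, 302 and 286 CPM to 284, 261 and 245 CPM (−0.18, SE 0.0567), and its call was lost without UBL5-siRNA replicate 2 or 3 (−0.16 and −0.12). The mean levels of PSMB4 and PSMB7 were thus 2.16- and 2.06-fold lower. Autophagy and lysosome genes stayed close to the shares over all genes, with 12 of 42 higher and 18 lower (median −0.10), among them GABARAPL1 (−1.32) and OPTN (−1.16) on the lower side and LAMP2 (0.63) on the higher.

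Genes of the cell cycle moved both ways. Of 31 G1 cyclins, CDKs, inhibitors and E2F factors tested, 17 fell (all genes, 36.4%) and 8 rose, with a median of −0.35. Falls of at least 2-fold numbered 9 (all genes, 14%). CDKN1A, the CDK inhibitor p21, had 12.2, 16.1 and 16.7 CPM with Ctrl-siRNA and 2.86, 2.99 and 4.32 CPM with UBL5 siRNA (log2 fold change −2.13, SE 0.172). CDK6 had 123, 115 and 113 against 47.6, 48.8 and 47.9 CPM (−1.28, SE 0.0513). CCND1, the cyclin D1 gene, rose from 119, 116 and 121 CPM to 231, 226 and 232 CPM (0.95, SE 0.0425), and MYC from 48.4, 54.9 and 56.8 CPM to 78.5, 82.2 and 85.8 CPM (0.62, SE 0.0665). The 4 genes had groups that did not overlap. Of 25 p53 targets, 10 rose and 10 fell (median 0.11). TP53I3 fell with CDKN1A, from 37.0, 34.4 and 33.3 CPM to 6.95, 6.32 and 6.13 CPM (−2.43, SE 0.0854), whereas BAX rose (0.72, SE 0.0548) and MDM2 had 68.9, 69.2 and 68.6 against 60.9, 64.1 and 66.2 CPM (−0.11, adjusted p = 0.07).

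DNA replication genes fell in 22 of 45 cases (all genes, 36.4%) and rose in 10, with a median of −0.19. CDC45, a part of the replicative helicase, had 76.1, 74.1 and 69.8 CPM with Ctrl-siRNA and 26.8, 22.8 and 19.9 CPM with UBL5 siRNA (log2 fold change −1.66, SE 0.0915), and RRM2, a subunit of ribonucleotide reductase, had 227, 203 and 203 against 104, 95.2 and 84.0 CPM (−1.16, SE 0.0756). Both genes were lower in every KD library. Of 18 replication-dependent histone genes with enough reads, of 55 on the list, 11 fell and 3 rose, with a median of −0.71, and H2AC6 had 31.9, 31.0 and 27.9 against 8.57, 10.4 and 8.45 CPM (−1.73, SE 0.0971). Most histone transcripts lack a poly(A) tail, and the libraries were made from polyadenylated RNA. Of 46 mitosis genes, 18 fell and 13 rose (median −0.05). SPC24, a kinetochore protein, had 26.4, 23.3 and 22.2 against 3.94, 4.48 and 3.99 CPM (−2.54, SE 0.106), and PLK1, the mitotic kinase, rose from 235, 235 and 233 CPM to 407, 408 and 384 CPM (0.77, SE 0.0433). CCNB1 had 421, 416 and 384 against 395, 375 and 357 CPM, with overlapping groups (−0.12, adjusted p = 0.069).

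Cohesion genes rose in 9 of 16 cases (all genes, 34.9%) and fell in 2, with a median of 0.32 and no change of 2-fold (all genes, 22.7%). STAG2, a cohesin subunit, had 64.6, 66.9 and 63.8 CPM with Ctrl-siRNA and 128, 129.9 and 129 CPM with UBL5 siRNA (log2 fold change 0.99, SE 0.0451). CDCA5, which encodes sororin, had 92.4, 91.8 and 77.1 against 134, 125 and 112 CPM (0.50, SE 0.0785). The KD libraries were higher, and counts per gene do not tell spliced from unspliced transcripts. SMC1A fell from 504, 487 and 462 CPM to 363, 330.0 and 319 CPM (−0.52, SE 0.0564). Of 33 Fanconi anemia and homologous recombination genes, 15 fell and 8 rose (median −0.11). FANCI, whose protein UBL5 is known to bind and stabilize, had 215, 196 and 194 against 163, 159 and 149.9 CPM (−0.36, SE 0.0543). BRCA1 had 68.5, 68.0 and 62.8 against 34.5, 33.4 and 33.4 CPM (−0.98, SE 0.0583), and FANCL, the ubiquitin ligase of the pathway, had 25.3, 25.4 and 22.2 against 4.29, 4.88 and 4.27 CPM (−2.44, SE 0.101). All 3 were lower in every KD library.

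The stress pathways were mixed. Of 32 genes of the integrated stress response, 13 fell and 8 rose, with a median of −0.02 and none by 2-fold (all genes, 14% lower and 8.62% higher by 2-fold). The factor ATF4 itself had 318, 309.7 and 350.2 CPM with Ctrl-siRNA and 381, 340.1 and 372 CPM with UBL5 siRNA (log2 fold change 0.16, SE 0.0588). TRIB3, a target of ATF4, had 101, 136 and 139.8 against 197, 210.1 and 247 CPM (0.80, SE 0.114), and the groups did not overlap. Of 35 endoplasmic reticulum genes, 17 fell and 7 rose (median −0.12). HSPA5, which encodes BiP, had 1120, 1116 and 1116 against 1314, 1246 and 1143 CPM (0.14, SE 0.0530), and EDEM1, of ER-associated degradation, fell from 219, 231 and 213 CPM to 90.2, 93.3 and 93.2 CPM (−1.26, SE 0.0479). EDEM1 fell by over 2-fold, whereas the calls of ATF4 and HSPA5 depended on the scaling and on single libraries. Cytosolic heat shock genes rose in 15 of 31 cases and fell in 8 (median 0.09), with HSP90AA1 at 1034, 897 and 903 against 1600, 1524 and 1365 CPM (0.66, SE 0.0698). In the mitochondrial unfolded protein response, 11 of 21 genes rose and 5 fell (all genes, 34.9% and 36.4%), with a median of 0.13. HSPD1, the mitochondrial HSP60, had 648, 589 and 581 against 913, 896 and 856 CPM (0.55, SE 0.0524), its partner HSPE1 had 59.4, 63.6 and 55.1 against 104, 83.2 and 85.5 CPM (0.62, SE 0.0852), and CLPX had 81.2, 83.9 and 87.7 against 137, 142 and 141 CPM (0.73, SE 0.0474). The 3 genes were higher in every KD library. Of the members that fell, ATF5, here an overlapping gene, had −0.85 (SE 0.0982) and ETHE1 −0.76 (SE 0.105). LONP1 fell less (−0.25, SE 0.0814), with overlapping groups. Of 26 NRF2 targets, 11 rose and 10 fell (median −0.05), with HMOX1 going from 29.3, 32.6 and 32.8 CPM to 91.3, 87.4 and 87.8 CPM (1.49, SE 0.0602) and PIR from 101, 103 and 105 CPM to 22.9, 23.0 and 20.9 CPM (−2.21, SE 0.0581).

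Mitochondrially encoded genes rose in 9 of 15 cases (all genes, 34.9%) and fell in none, with a median of 0.38. The groups did not overlap for 5 of these 15 genes, a smaller share than over all genes (73.9%). By edgeR at an unadjusted p under 0.05, and by DESeq2 with or without adjustment, 0 were lower. Their share of all counts was 2.46%, 2.96% and 3.30% with Ctrl-siRNA and 2.66%, 3.72% and 3.65% with UBL5 siRNA, a difference of 0.436 percentage points with overlapping groups (exact permutation test, two-sided p = 0.3). MT-ND1 had 461, 648 and 609.8 CPM with Ctrl-siRNA and 742, 1272 and 1036 CPM with UBL5 siRNA (log2 fold change 0.83, SE 0.166), and replicate 1 was the lowest in both groups. Of 51 nuclear genes of the respiratory chain, 13 rose and 15 fell (median −0.01). UQCRC1 fell from 282, 298 and 286 CPM to 208, 200.5 and 204 CPM (−0.50, SE 0.0434), and NDUFA5 rose from 39.3, 35.2 and 37.7 CPM to 65.8, 74.3 and 71.8 CPM (0.92, SE 0.0658).

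Genes of cell death did not share a direction. Of 26 pro-apoptotic genes, 11 rose and 5 fell (median −0.04), and of 14 anti-apoptotic genes, 3 rose and 8 fell (median −0.23), beside 34.9% and 36.4% over all genes. BID, which links death receptors to mitochondria, had 44.1, 43.4 and 51.6 CPM with Ctrl-siRNA and 103, 103 and 106 CPM with UBL5 siRNA (log2 fold change 1.17, SE 0.0665). APAF1 and BAK1, which act at and after mitochondrial permeabilization, fell (−0.71, SE 0.0528, and −0.58, SE 0.120). Beside BIRC3, BCL2 fell from 8.56, 6.91 and 6.97 CPM to 3.25, 3.24 and 3.11 CPM (−1.23, SE 0.135) and XIAP from 53.9, 50.4 and 49.8 CPM to 26.9, 30.7 and 27.5 CPM (−0.86, SE 0.0691). The 3 that rose were BAG4 (0.77, SE 0.0851), the overlapping gene BCL2L1 (0.61, SE 0.0416) and BAG3 (0.44, SE 0.0669). MCL1 had 357, 341 and 365 against 263, 272 and 282 CPM (−0.38, SE 0.0462). The groups of BID, BCL2, XIAP and MCL1 did not overlap.

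The BMP and TGF-beta pathway signals through receptor kinases to SMAD factors, which in liver also drive HAMP with the co-receptor HJV. Its genes rose in 30 of 39 cases (all genes, 34.9%) and fell in 7, with a median of 0.61. SMAD6, an inhibitory SMAD that the pathway itself induces, had 25.7, 21.9 and 27.9 CPM with Ctrl-siRNA and 129, 125 and 122 CPM with UBL5 siRNA, a 4.99-fold rise (log2 fold change 2.32, SE 0.0765). SMAD7, the other inhibitory SMAD, had 34.7, 35.8 and 36.9 against 69.6, 72.5 and 71.5 CPM (0.99, SE 0.0541), and ID1, a target of BMP, had 151, 158 and 239.8 against 247, 291 and 338 CPM (0.68, SE 0.157). All 3 were higher in every KD library, by a narrow margin for ID1. The extracellular inhibitor FST (1.41, SE 0.0615) and the pseudoreceptor BAMBI (1.18, SE 0.0540) rose as well. HJV itself fell from 65.7, 76.2 and 71.9 CPM to 19.02, 21.1 and 22.2 CPM (−1.78, SE 0.0775), and TGFBR2 from 415, 408 and 416 CPM to 241, 231 and 232 CPM (−0.82, SE 0.0416).

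Of 32 iron genes, 13 rose and 12 fell (all genes, 34.9% and 36.4%), with a median of −0.03. STEAP3, a ferrireductase, had 10.6, 10.6 and 10.2 CPM with Ctrl-siRNA and 55.8, 53.1 and 47.9 CPM with UBL5 siRNA (log2 fold change 2.32, SE 0.0773), and TFRC, the transferrin receptor, had 1119, 1152 and 1085 against 1478, 1491 and 1507 CPM (0.42, SE 0.0432). FTL, the ferritin light chain, fell from 3422, 3346 and 3254 CPM to 2339, 2338 and 2233 CPM (−0.54, SE 0.0452). TFRC and STEAP3 were thus higher and FTL lower in every KD library, within a list that moved both ways. The ferritin gene FTH1, here an overlapping gene, had 158, 253 and 575 against 178, 247 and 452 CPM. It was not called (−0.16, SE 0.406, edgeR adjusted p = 0.73).

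Of 28 genes of beta-catenin signalling, 16 rose (all genes, 34.9%) and 6 fell, with a median of 0.35. CTNNB1, which encodes beta-catenin, had 1030, 1025 and 978 CPM with Ctrl-siRNA and 1399, 1305 and 1296 CPM with UBL5 siRNA (log2 fold change 0.40, SE 0.0475), and ZNRF3, a feedback ligase of the pathway, had 44.9, 37.8 and 43.3 against 124, 137 and 134 CPM (1.65, SE 0.0678). Both rose without overlap. Of 34 AP-1, EGR and ERK feedback genes, 14 rose and 5 fell (median 0.31). DUSP5, a phosphatase of ERK, had 18.1, 18.8 and 20.96 against 43.8, 50.8 and 53.2 CPM (1.36, SE 0.0870), whereas JUN had 60.5, 63.8 and 104 against 83.9, 87.9 and 135 CPM (0.43, adjusted p = 0.081) and was highest in replicate 3 of both groups. Of 42 cytoskeleton, adhesion and matrix genes, 17 rose and 14 fell (median 0.07). FN1, which encodes fibronectin, lost the most CPM of all genes, from 6705, 7286 and 7015 CPM to 3834, 3387 and 3590 CPM (−0.96, SE 0.0567), and CLDN1, a tight junction protein, fell from 698, 719 and 754 CPM to 357, 378 and 390.0 CPM (−0.95, SE 0.0497). THBS1 rose from 133, 122 and 126 CPM to 282, 271 and 307 CPM (1.17, SE 0.0568).

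The response of Huh7 was set against that of HepG2, which had the same design, in a fit of all 12 libraries. Of 15668 genes tested for a difference between the lines, 3374 were called (21.5%), 1826 with the more positive change in Huh7 (11.7%) and 1548 with the more negative (9.88%). HepG2 varied more, with a biological coefficient of variation of 0.189, and its Ctrl-siRNA replicate 3 stood apart with 1773 listed genes at 0, so that 4299 genes were called without it. UBL5 fell in both lines in this fit, by a log2 of −3.47 in Huh7 and −3.62 in HepG2 (difference 0.16, SE 0.270, adjusted p = 0.74). CDKN1A fell in Huh7 and rose in HepG2, with log2 fold changes of −2.15 and 1.01 (difference −3.17, SE 0.280, adjusted p = 1.5e-05). CPA4, a carboxypeptidase, had the largest difference of the genes named, at −2.61 and 1.99 (difference −4.60, SE 0.508, adjusted p = 7.6e-05). In the other direction, C6 rose in Huh7 and fell in HepG2, at 0.77 and −1.98 (difference 2.74, SE 0.301, adjusted p = 7.4e-05), and HIP1 did likewise, at 1.79 and −0.87 (difference 2.66, SE 0.169, adjusted p = 1.9e-06). HEY1, a target of Notch, rose in Huh7, at 2.46, and had −0.04 in HepG2 (difference 2.50, SE 0.240, adjusted p = 2.8e-05). BIRC3 fell in both lines, by more in Huh7, at −3.60 and −1.06 (difference −2.54, SE 0.334, adjusted p = 2.3e-04), and CXCL8 fell in Huh7 and rose in HepG2, at −1.29 and 1.13 (difference −2.42, SE 0.478, adjusted p = 0.0031). CXCL5, at 578 CPM or more in each Huh7 control library of this fit, did not exceed 1.03 CPM in a HepG2 library.

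**Figure D5:**
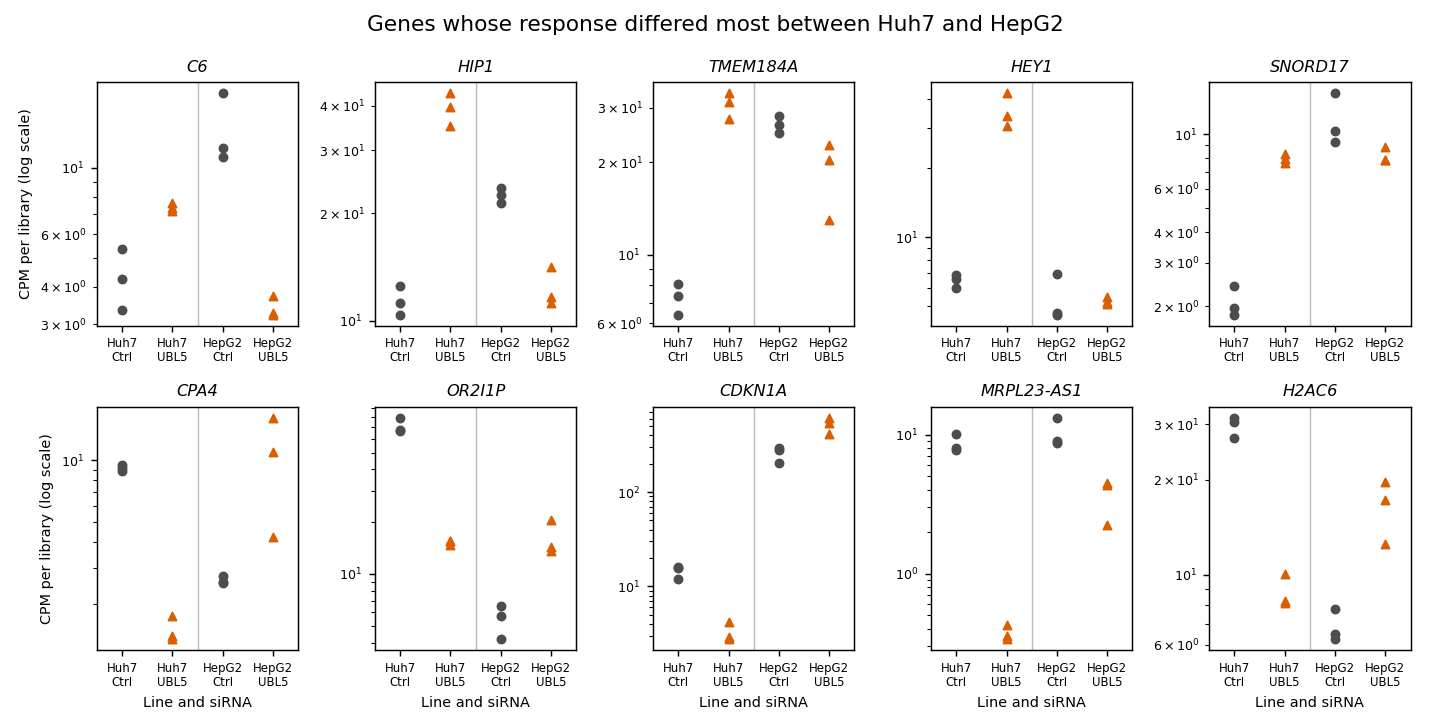
CPM per library on log axes for the 10 genes whose response differed most between Huh7 and HepG2, more positive in Huh7 in the upper row and more negative in the lower row. Circles are Ctrl-siRNA and triangles UBL5 siRNA, 3 libraries each, and the grey line parts the lines. CDKN1A, CPA4, OR2I1P and H2AC6 go down in Huh7 and up in HepG2.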

How the data were processed

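RNA was taken from Huh7 and HepG2 cells after transfection with Lipofectamine RNAiMAX, and poly-A RNA was sequenced as stranded libraries in single 50-base reads. The deposited values are raw counts per Ensembl gene, which the authors made with bcl2fastq, FastQC 0.11.9, STAR 2.7.6a on GRCh38 and featureCounts, whose strand setting and annotation are not given in the sources used here, nor is the filter behind the genes listed (lowest total 15 counts). The deposited tables also hold the authors' own comparison from DESeq2 1.30.0 (mean, log2 fold change, its error, statistic and p-values), which was not used. Genes split into higher and lower tables were joined, all 12 count columns matched a labelled library, and 99.8% of the Huh7 IDs matched GENCODE 44.

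Genes of the 6 Huh7 libraries were filtered with filterByExpr (minimum count 10, minimum total 15), scaled by TMM and fitted in edgeR 4.0.16 (R 4.3.3) for its quasi-likelihood test, two-sided, with Benjamini-Hochberg adjustment over all genes tested. CPM values use the same scaling. The difference between the lines was an interaction term over all 12 libraries. The mitochondrial share was compared with an exact permutation test, whose smallest p with 3 against 3 libraries is 0.1. DESeq2 1.42.0, glmTreat, other scalings and filters, a replicate block and the omission of each library were tried. Within a group no library duplicated another, since the chi-square of their counts was at least 3.55 per degree of freedom. Simulated data for the Huh7 comparison (16616 genes tested) began with 200 changed genes, far fewer than the 12098 called in the real data. There the test called 56.9% of genes given a log2 change of 0.5, 72.7% at 1 and 100% at 2, with 10 false calls. These rates may not carry over to a comparison with so many calls.

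The members and the 48 gene lists were chosen with earlier results of these data known. Genes named in the text are UBL5, the 10 protein-coding genes with the largest change each way (mean of at least 100 scaled counts, no overlap of the groups), 5 other transcripts each way, the anchor genes and the 3 smallest p-values each way of each list, the 10 genes with the largest change in CPM each way, and 5 genes each way for the difference between the lines (called, with a mean of at least 100 scaled counts in each line). BIRC2, CCL20, CD83, CFB, CFLAR, CSF1, CXCL10, CXCL2, CXCL3, CXCL6, IL18, IL32, IRAK1, MAP3K14, PTGS2, SAA2, TNFAIP2 and TRAF1 fall outside this rule and were chosen after their values were seen. Some genes that the rule names are not reported here.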

Additional observations from a re-analysis of the deposited data

Results flagged for a closer look

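For 10 genes the response to UBL5 siRNA differed between Huh7 and HepG2 by the interaction test of edgeR over 12 libraries, with adjusted p-values from 1.9e-06 to 3.3e-04. They were taken as the 5 largest differences each way among called genes with a mean of at least 100 scaled counts in each line. Genes low in either line could thus not enter. The log2 fold change was more positive in Huh7 for C6 (0.77 in Huh7 and −1.98 in HepG2, difference 2.74), HIP1 (1.79 and −0.87, difference 2.66), TMEM184A (2.08 and −0.50, difference 2.59), HEY1 (2.46 and −0.04, difference 2.50) and SNORD17 (1.93 and −0.48, difference 2.41). It was more negative in Huh7 for CPA4 (−2.61 and 1.99, difference −4.60), OR2I1P (−2.22 and 1.54, difference −3.77), CDKN1A (−2.15 and 1.01, difference −3.17), MRPL23-AS1 (−4.51 and −1.46, difference −3.05) and H2AC6 (−1.75 and 1.27, difference −3.02). All 10 kept their direction and their call under each alternative tried, including those without HepG2 Ctrl-siRNA replicate 3. In CPM of the 12-library scaling, CDKN1A had 12.02, 15.8 and 16.2 with Ctrl-siRNA and 2.75, 2.88 and 4.16 with UBL5 siRNA in Huh7, and 205, 276 and 297 against 417, 544 and 609 in HepG2, so that its level was higher in every HepG2 library than in any Huh7 library.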

How the results depend on the processing

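The number of genes called in Huh7 (12098) was 11445 to 12039 without single libraries and 8530 with all 12 libraries in 1 fit, and at least 2-fold calls (3843) numbered 3942 to 4125 without single libraries and 2156 by glmTreat, which tests against the fold itself. The sources used here do not say whether replicate numbers pair the Huh7 libraries, and the main fit does not use them. Correlations of deviations within a number were 0.16, 0.02 and 0.21, and across numbers they ran from −0.19 to 0.03. Not every library correlated best with its own number. With the replicate block 12672 genes were called in Huh7 and 4338 for the difference between the lines. That difference (3374 genes) ranged from 2465 to 4299 without single libraries. The log2 fold change of UBL5 in Huh7 stayed between −3.474 and −3.376 without single libraries. The excess of the median of 1-exon genes over genes with over 20 exons (0.30) ranged from 0.28 to 0.36 without single libraries, an alternative added after seeing the data. Scaling by library size alone moved the median of all genes by −0.08.

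Of the 202 genes besides UBL5 that were compared across settings, 186 kept direction and call in every setting. Calls were lost for CFLAR without any single library but Ctrl-siRNA replicate 1 (−0.11 to −0.16), for ATF4 without Ctrl-siRNA replicate 1 or 2 or UBL5-siRNA replicate 1 or 3, for HSPA5 without Ctrl-siRNA replicate 2 or 3 or UBL5-siRNA replicate 1 or 2, and for ATF4, HSPA5 and SREBF2 with library size only (0.08, 0.06 and 0.07). Calls were gained for JUN without Ctrl-siRNA replicate 3 (0.72) and ISG15 without Ctrl-siRNA replicate 1 (−0.27). Values near 0 changed sign, none of them called. With library size only and with the upper quartile these were ALB, also the median of the hepatocyte markers and of the plasma carriers (−0.0573 and −0.0176), BIRC2 (−0.0517 and −0.0122) and the median of glycolysis (−0.0801 and −0.0405), and with library size only that of matrix genes (−0.00759). With DESeq2 they were the medians of fatty acid synthesis (0.0121), the integrated stress response (8.9e-05) and the respiratory chain (0.0153), and CSF1 (8.4e-04). Without overlapping genes they were the medians of fatty acid synthesis (0.0137), glycolysis (−0.0452), NRF2 targets (0.0465) and iron genes (0.0231). Without single libraries the ranges were −0.00546 to 0.0494 for ALB and the hepatocyte markers, −0.0190 to 0.0594 for BIRC2, −0.0516 to 0.00117 for CASP8, −0.0365 to 0.00200 for CSF1, −0.0114 to 0.0232 for fatty acid synthesis, −0.0191 to 0.0357 for glycolysis, −0.0731 to 0.0570 for the integrated stress response, −0.0720 to 0.0497 for NRF2 targets, −0.0401 to 0.0217 for pro-apoptotic genes, −0.0929 to 0.0647 for iron genes and −0.0272 to 0.0393 for the respiratory chain. The causes were not tested.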
